A study of Mus musculus with 72 samples.

Results

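The promoter CpG island of Dstn was described site by site in 6 tissues of Dstn -/- (KO) and wild-type (WT) mice. The island was taken as the CpG sites listed on chromosome 2 between 143740490 and 143741399 (mm9) that had at least 10 reads in each of the 12 Dstn island libraries. Of 110 positions listed within 2000 bases of the median listed position, 78 met this rule, and they span these bounds. Over the 6 islands of the study 299 sites were so kept. The lowest coverage of a kept site in any library was 1364 calls. The 32 positions left out never exceeded 48 calls in a library, and together held 4 methylated calls of 946.

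The study asked whether promoters targeted by a reporter allele become methylated, and measured 6 targeted mouse lines by sequencing amplicons of bisulfite-treated DNA in 72 libraries, 48 of them from islands. The KO mice carried a Knockout Mouse Project tm1a allele, where a LacZ reporter is read from the gene's own promoter beside a neo selection cassette. KO and WT mice shared the C57BL/6N background and were 7 weeks old. Each genotype had 1 library from each of brain, heart, kidney, liver, lung and spleen, and the labels give neither the number of animals nor any pooling of them. Tissues therefore stand in for replicates in KO against WT tests, whose p-values measure the spread between tissues. In the site tests between tissues, the KO and the WT library of a tissue stand in for its replicates. Correlations over the 12 libraries permute them freely, without regard to tissue or genotype. The DNA was from whole tissue, so a level is an average over all its cell types and both alleles. The 12 libraries held 1021156 to 3870827 methylation calls, and the median coverage of a site was 7192 to 45291 calls. Amplified reads carry no molecular identifiers here, so intervals from counts cover counting error only.

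Destrin, the product of Dstn, is an actin-depolymerizing protein of the cofilin family. It severs and disassembles actin filaments, and mice without it develop overgrowth of the corneal epithelium. CpG islands at promoters are dense in CpG and usually lack methylation, also in tissues where the gene is little used, and dense methylation of such an island goes with silencing. Bisulfite turns unmethylated cytosine into uracil and leaves methylated cytosine, so the share of calls read as cytosine is the methylation level.

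The stretch of 250 bases before the annotated Dstn start is shown because it holds 5 of the 8 sites that stood far above the rest. It is the RefSeq sequence of GRCm38, plus strand, at chr2:143915081-143915330, 5′ to 3′, with every CpG in capitals:
Dstn upstream: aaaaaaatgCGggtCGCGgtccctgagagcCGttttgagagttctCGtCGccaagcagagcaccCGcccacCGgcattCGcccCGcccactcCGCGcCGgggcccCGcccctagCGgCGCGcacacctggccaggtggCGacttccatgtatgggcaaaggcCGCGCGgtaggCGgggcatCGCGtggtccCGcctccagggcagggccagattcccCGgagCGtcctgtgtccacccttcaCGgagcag
It had a GC content of 69.6% and 28 CpGs, and the observed CpG number was 0.929 of that expected from its base composition. Of 32851 mouse RefSeq promoters, 92.4% had fewer CpGs than Dstn in the same 250 bases. The GC box (GGGCGG or CCGCCC) was found 3 times counting both strands, and 32.7% of promoters of that length hold one. No CCAAT (or ATTGG) and no TATAAA (or TTTATA) was found in this window, against matches in 33.8% and 12.4% of promoters. The spacing of CpGs placed the window on the mm9 positions of the files: all 31 CpGs of the RefSeq window, which runs a little past the start to 300 bases, fell on listed sites at 1 of 4910 offsets tried, where the next best offset matched 7. Distances below are counted from the annotated start placed in this way, negative upstream. The 9 listed positions within the window that failed the coverage rule lay at no CpG of the RefSeq sequence.

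Low methylation was the state of most of the island in every library. Of the 78 sites, 70 had a mean level below 5%, and their site means lay between 0.0877% and 0.922% with a median of 0.434%. The other 8 sites had means of 5% or more, with values up to nearly full methylation, and are called elevated sites here. They lay at -392, -220, -186, -179, -112 and -33 upstream and at +329 and +333 near the end of the covered stretch. The low sites were 45 upstream and 25 downstream of the start. The elevated sites in the upstream sequence are shown with their own CpG in capitals, 5′ to 3′ on the plus strand, in 30 bases of context; the sites at -186 and -179 share most of theirs.
site -220: cggtccctgagagcCGttttgagagttctc
site -186: ccaagcagagcaccCGcccaccggcattcg
site -179: gagcacccgcccacCGgcattcgccccgcc
site -112: acctggccaggtggCGacttccatgtatgg
site -33: agggccagattcccCGgagcgtcctgtgtc
These 30-base windows held 1 to 4 CpGs with a median of 2.0. The same windows around 20 low sites of the upstream sequence held 2 to 7 with a median of 4.0. Windows of neighbouring sites overlap, and this difference was not tested.

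**Figure D1:**
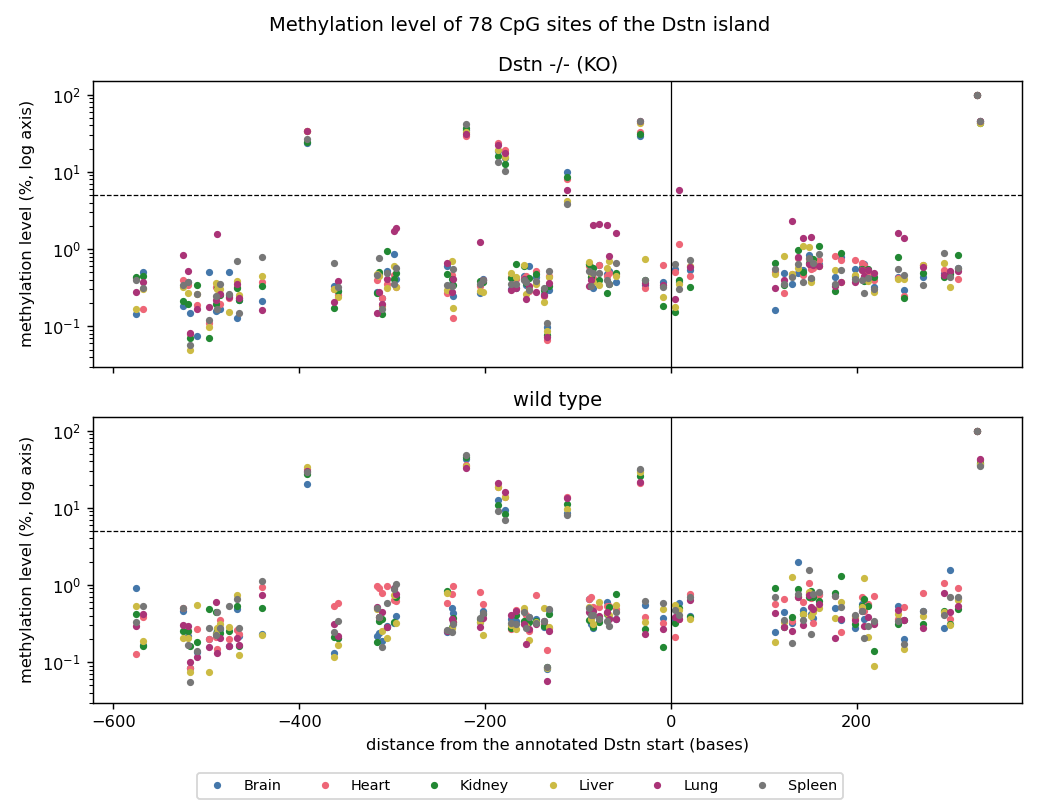
Methylation level in percent (log axis) of each of the 78 Dstn island sites against distance from the annotated start in bases, KO above and WT below, with 1 point per library coloured by tissue. The dashed line marks 5%: 8 sites lie above it in mean level and 70 below. KO lung is the highest library at 17 low sites, and at 14 of them it is at 1% or more.

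The mean level over the 78 sites was low and similar between tissues. In KO libraries it had a lowest value of 3.87% in kidney, a median of 4.08% and a highest value of 4.49% in lung, against 3.70% in brain, a median of 3.86% and 4.01% in heart in WT libraries. From high to low the KO order was lung, heart, liver, spleen, brain and kidney, and the WT order heart, liver, lung, spleen, kidney and brain. With 1 library per tissue and genotype, neighbours in these orders could not be tested within a genotype. The ranges overlapped, but within every tissue KO was above WT. The KO mean was 4.09% ± 0.222 and the WT mean 3.85% ± 0.105 (SD, n = 6 each). The difference of 0.242 ± 0.185 percentage points had the smallest p that 6 pairs allow (two-sided exact sign-flip permutation p = 0.03125). It was 0.0160 points for the median over sites (exact p = 0.6875). With 6 elevated sites set to an equal balance of flanking coverage it was 0.103 points (exact p = 0.125). That last value is a description, because the balance is not independent of the level where a flank had nearly the site's coverage.

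Most of this difference came from the elevated sites. Of the 0.242 points, 0.204 came from the 8 elevated sites and 0.0384 from the 70 low sites. The level over the elevated sites alone was 34.0% to 37.6% in KO libraries (median 36.1%), against 32.5% to 34.6% in WT libraries (median 34.0%), and was higher in KO in 6 of 6 tissues by 1.99 ± 0.743 points (exact sign-flip permutation p = 0.03125). The level over the low sites was 0.410% to 0.707% in KO libraries (median 0.427%), against 0.375% to 0.524% in WT libraries (median 0.412%). It was higher in KO in 4 of 6 tissues, and the difference of 0.0427 points did not pass (exact sign-flip permutation p = 0.656). Without the lung pair it was -0.0152 points (exact p = 0.750). The highest WT library was heart, where 38 low sites reached 0.5%, against 12 to 21 in the other WT libraries and 17 to 28 in KO libraries.

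No single site passed the test of KO against WT. The quasi-likelihood test of edgeR, with a term for tissue, called 0 of 78 sites at an adjusted p of 0.05 (0.0% of sites tested). At an unadjusted p under 0.05 it gave 6 sites, 5 of them elevated, and the smallest adjusted p was 0.180. limma on logit levels called 0 and gave 5 at an unadjusted p under 0.05. Sites whose KO and WT libraries did not overlap were 1 of 78 (1.28%), the site at +333. Without the brain pair edgeR called 1 site, at -112, which was lower in KO (adjusted p = 0.0248).

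The low sites kept much the same order in KO and WT. Across these 70 sites the Spearman correlation of KO with WT site means was 0.688, and 0.765 without KO lung; sites of a library share its depth and amplification, so this is a description. The KO mean was above the WT mean at 44 sites and below it at 26. Site differences lay between -0.252 and 0.945 points with a median of 0.0235. 1 site was higher in KO in all 6 tissues, 0 were lower in all 6, and at 0 low sites did the genotypes fail to overlap.

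Among the low sites the lowest was 143740549 at -517, at 0.0814% ± 0.0362 in KO and 0.0939% ± 0.0364 in WT (SD, n = 6 each). The site 143740933 at -133 was close to it, at 0.0856% ± 0.0164 in KO and 0.0901% ± 0.0288 in WT. The site 143740569 at -497 followed, at 0.179% ± 0.160 in KO and 0.232% ± 0.139 in WT. Cytosine that escaped conversion is also read as methylated, and conversion was not measured separately. The highest low site was 143741075 at +9, at 1.39% ± 2.16 in KO and 0.449% ± 0.0872 in WT, where KO lung alone set the KO mean. Next were 143741215 at +149, at 0.791% ± 0.155 in KO and 0.942% ± 0.332 in WT, and 143741203 at +137, at 0.709% ± 0.178 in KO and 0.961% ± 0.506 in WT. None of these 6 sites passed the genotype test (edgeR adjusted p 0.838 to 0.954).

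Low sites downstream of the start had higher levels than those upstream in all 12 libraries. KO libraries had 0.598% ± 0.164 downstream and 0.399% ± 0.0915 upstream, and WT libraries 0.522% ± 0.0537 downstream and 0.375% ± 0.0605 upstream (SD, n = 6 each). Averaged within tissue, the difference was 0.173 ± 0.0343 points (two-sided exact sign-flip permutation p = 0.03125, n = 6). It was 0.152 points without KO lung, and downstream was higher in 11 of 11 libraries. Median coverage was 7956 calls downstream and 28954 upstream, and its part in this difference was not tested. The split at the start was chosen after the values were seen.

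The elevated sites differed in which tissues were high and in the direction of the genotype difference. The site 143740674 at -392 had 23.4% to 34.1% in KO libraries (median 30.1%), against 20.0% to 33.3% in WT libraries (median 29.8%). Brain was lowest in both genotypes, the ranges overlapped almost entirely, and the difference was 0.642 ± 2.97 points (edgeR adjusted p = 0.950).

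The site 143740846 at -220 was lower in KO. It had 29.3% to 41.4% in KO libraries (median 34.0%), against 32.5% to 48.2% in WT libraries (median 39.4%). The ranges overlapped, although spleen was highest in both and KO was below WT in 6 of 6 tissues, with a mean difference of -5.36 ± 3.10 points. This did not pass the site test (edgeR adjusted p = 0.538).

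The neighbouring sites 143740880 at -186 and 143740887 at -179 were both higher in KO in 6 of 6 tissues. The first had 13.3% to 23.7% in KO libraries (median 19.0%), against 9.03% to 20.9% in WT libraries (median 15.6%), with a difference of 3.72 ± 2.22 points (edgeR adjusted p = 0.190). The second had 10.2% to 18.9% in KO libraries (median 15.3%), against 7.03% to 15.8% in WT libraries (median 11.5%), with a difference of 3.63 ± 1.67 points (edgeR adjusted p = 0.180). Spleen was the lowest tissue at both sites in both genotypes, and heart or lung the highest.

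The site 143740954 at -112 was lower in KO in 5 of 6 tissues. It had 3.85% to 9.98% in KO libraries (median 6.89%), against 8.09% to 13.6% in WT libraries (median 10.3%). Brain went the other way, and the difference was -4.03 ± 3.19 points (edgeR adjusted p = 0.180).

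The site 143741033 at -33 had the largest difference of the island. It had 28.7% to 45.7% in KO libraries (median 38.3%), against 21.2% to 31.9% in WT libraries (median 27.4%). KO liver, lung and spleen were at 43.2%, 44.9% and 45.7% and KO heart at 33.3%, above every WT library, while KO brain was below WT brain. The difference of 11.1 ± 8.55 points did not pass (edgeR adjusted p = 0.190).

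The last 2 sites of the covered stretch lay 4 bases apart and differed in level. The site 143741395 at +329 was read as almost fully methylated in every library, at 99.7% to 99.9% in KO (median 99.8%) and 99.2% to 99.8% in WT (median 99.7%). KO was above WT in 6 of 6 tissues by 0.174 ± 0.204 points (edgeR adjusted p = 0.405). The low site just before it, 143741375 at +309, had a mean of 0.614%. The labels do not give primer or amplicon positions. Whether this or any other elevated site lies in a primer or at an amplicon end was not tested. The site 143741399 at +333 had 42.8% to 46.0% in KO libraries (median 45.1%), against 35.2% to 42.4% in WT libraries (median 37.8%). It was the only site where the genotypes did not overlap, narrowly, with 42.8% as the lowest KO and 42.4% as the highest WT value. Its mean KO minus WT difference was 6.07 ± 2.89 points (edgeR adjusted p = 0.538). Its coverage, relative to the nearest low site before it, was 0.835 to 0.856 in KO libraries and 0.794 to 0.830 in WT libraries, so this ratio did not overlap either. Its level and that ratio had a Pearson correlation of 0.938 over the 12 libraries, given as a description because both use the reads of the site.

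Coverage along the island changed in steps, and most elevated sites and some low sites stood at them. Between neighbouring sites, coverage changed by at least 1.1-fold at 16 of 77 places, by the median over libraries. An elevated site was part of 7 of these steps, and 7 of the 8 elevated sites stood at a step. The other 9 steps lay between low sites, and the 18 low sites there, of 70, had mean levels of 0.206% to 0.713%. Each of the 7 steps with an elevated site also had a low site on its other side.

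**Figure D2:**
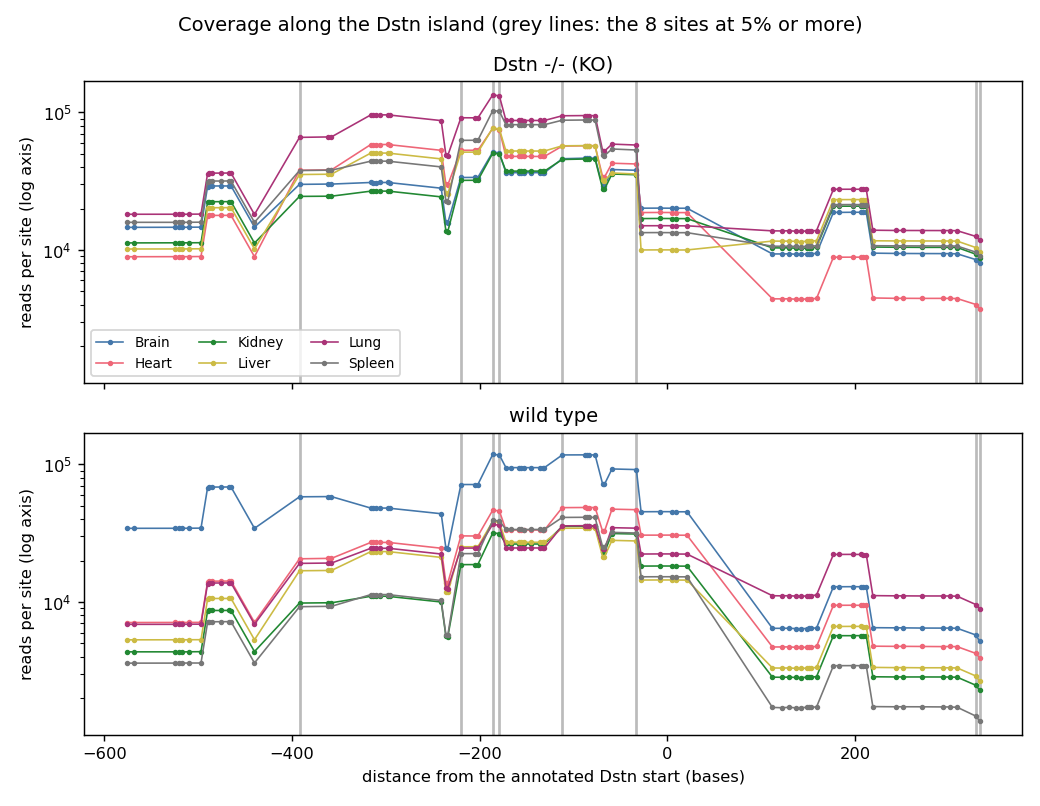
Coverage of each site in reads (log axis) along the Dstn island against distance from the annotated start in bases, KO above and WT below, with 1 line per library coloured by tissue and grey lines at the 8 elevated sites. Coverage changes in steps, at which 7 of the 8 elevated sites and some low sites stand.

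At the 6 upstream elevated sites, level and the coverage balance of the flanks went together across libraries. For each site the coverage of the nearest low site on the left was divided by that of the nearest low site on the right. At -392, -220, -112 and -33 a flank had nearly the coverage of the site. Ratio and level are not independent there, so the correlations and p-values at these sites are a description. Median coverage of the site was 1.54 and 1.41 times that of the left and right flank at -186. It was 1.51 and 1.38 times at -179. Over 12 libraries the Pearson correlation of the level with the log2 ratio was -0.951 at -392, -0.995 at -220, 0.997 at -186, 0.996 at -179, -0.987 at -112 and 0.993 at -33. Each had a permutation p of 2e-05, the smallest that 100000 permutations gave, and an adjusted p of 2e-05 over the 6 sites. Spearman correlations ran from -0.993 to 0.993 with the same p, the weakest being -0.972 at -392.

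The relation held within each genotype and without the extreme libraries. Within KO, r was -0.963 at -392 and -0.961 at -112, and further from 0 at the other sites; within WT it was -0.995 at -392 and further from 0 elsewhere. Leaving out the 2 libraries farthest from the median ratio gave values no closer to 0 than -0.973. Levels of the flanking low sites themselves had correlations of -0.276 to 0.623 with the ratio. The sign followed the side: levels were higher where the better-covered flank was more dominant at -392, -220, -112 and -33, and where the left flank gained at -186 and -179. This relation was looked for after the values were seen.

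**Figure D3:**
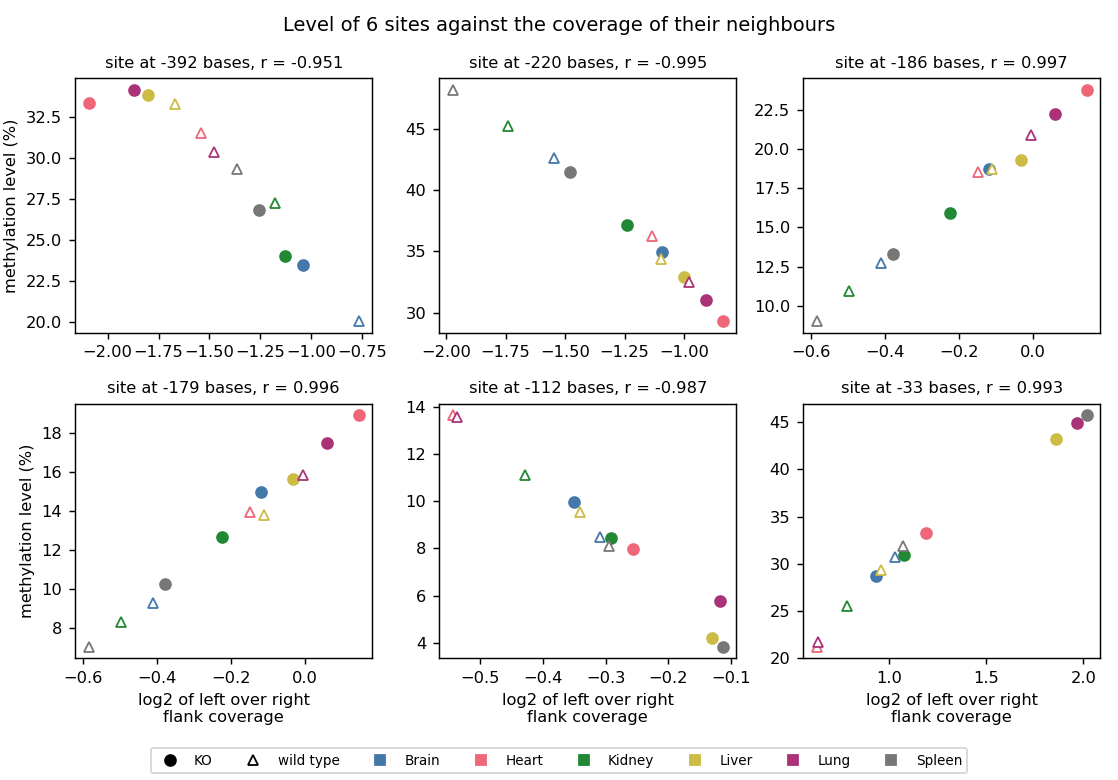
Methylation level in percent of the 6 upstream elevated Dstn sites against the log2 ratio of left to right flank coverage, with 1 point per library (KO filled circles, WT open triangles, coloured by tissue). At each site the libraries of both genotypes lie along a common line or curve, with Pearson correlations between -0.995 and 0.997. Where a flank had nearly the coverage of the site, ratio and level are not independent.

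The coverage balance of KO and WT libraries overlapped at all 6 sites. At -33 the log2 ratio averaged 1.51 ± 0.49 in KO and 0.85 ± 0.20 in WT (SD, n = 6 each), higher in KO in 5 of 6 tissues. At -220 it averaged -1.09 ± 0.24 in KO and -1.41 ± 0.40 in WT, higher in KO in 6 of 6. At -186 and -179, which share their flanks, it was -0.09 ± 0.19 in KO and -0.29 ± 0.24 in WT, higher in KO in 6 of 6. At -112 it was -0.21 ± 0.10 in KO and -0.41 ± 0.11 in WT, higher in KO in 5 of 6, with brain the exception as at -33. At -392 it was -1.53 ± 0.44 in KO and -1.33 ± 0.32 in WT, higher in KO in 2 of 6. Two-sided exact sign-flip permutation p-values were 0.03125 to 0.15625, and none passed after adjustment over the 5 pairs of flanks (adjusted p 0.0781 to 0.156). As 0.03125 is the smallest p that 6 tissue pairs allow, 1 pair of flanks alone could not have passed after adjustment. Not passing therefore does not show an equal balance.

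At an equal flank ratio the genotype difference was nearer to 0 at 5 of the 6 sites, while at -392 it turned sign and was larger. Levels were set to a common ratio with 1 slope per site, estimated within genotypes. Where a flank had nearly the coverage of the site, the ratio is not independent of the level, so this is a description. The difference at -33 was then 0.195 ± 1.61 points, at -220 it was -0.0946 ± 1.101, at -186 it was -0.385 ± 0.501, at -179 it was 0.449 ± 0.425 with KO higher in 5 of 6 tissues, at -112 it was 0.420 ± 0.781 and at -392 it was -1.79 ± 1.74 with KO higher in 1 of 6, against 0.642 ± 2.97 as measured. Exact sign-flip permutation p-values were 0.0625 to 0.8125 over 6 pairs. With these 6 sites adjusted, the island level differed by 0.103 ± 0.145 points, higher in KO in 5 of 6 tissues (exact p = 0.125). The relation was taken as a straight line, which the points at -392, bent at the lowest ratios, followed least closely of the 6 sites.

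**Figure D4:**
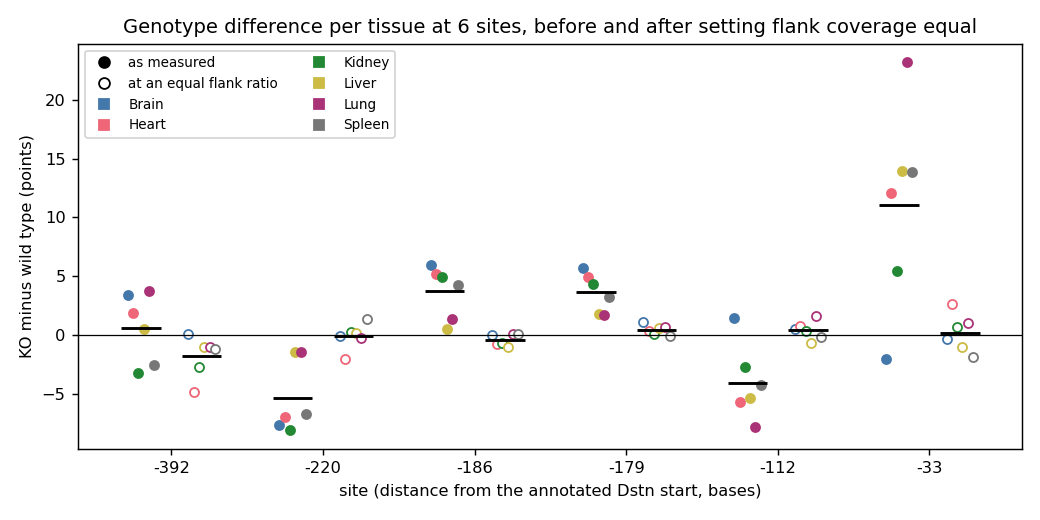
Difference in methylation level (KO minus WT, percentage points) at the 6 upstream elevated Dstn sites, as measured and at an equal flank coverage ratio, with 1 point per tissue (filled as measured, open at an equal ratio) and a short bar for the mean. The measured means lie between -5.36 and 11.1 points, and those at an equal ratio between -1.79 and 0.449.

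The methylated calls of an elevated site were also set against the coverage gained at its step. At -220 the site's methylated calls made up 65.6% ± 0.845 of the calls gained over the left flank in KO and 65.1% ± 0.793 in WT (SD, n = 6 each). This share lay between 64.5% and 66.6% in all 12 libraries, with a coefficient of variation of 1.26%, against 15.9% for the level. At -33, over the right flank, the share was 60.4% ± 0.663 in KO and 61.3% ± 0.386 in WT, with a coefficient of variation of 1.14%, against 25.9% for the level. The genotype difference in share did not pass at either site (exact sign-flip permutation p = 0.125 and 0.09375).

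At the other sites the share varied more between libraries or differed between the sides. At -186 it was 62.5% ± 1.59 in KO and 64.04% ± 0.735 in WT over the right flank, and 55.6% ± 15.8 in KO and 41.5% ± 17.05 in WT over the left. At -179 it was 51.8% ± 1.05 in KO and 50.5% ± 1.45 in WT over the right flank, and 46.0% ± 13.8 in KO and 32.1% ± 13.6 in WT over the left. At -392 it was 45.8% ± 1.54 in KO and 48.4% ± 0.562 in WT over the left flank, lower in KO in 6 of 6 tissues (exact p = 0.03125). At -112 it was 54.5% ± 11.1 in KO and 44.3% ± 0.801 in WT over the left flank, higher in KO in 6 of 6 tissues (exact p = 0.03125). Coverage at -112 was 1.08 to 1.45 times that of the left flank, with the smallest steps in KO libraries. The share there thus divides by a small gain in some libraries, and the part of this in the difference was not tested. KO lung had 76.7% at -112, and the other 5 KO libraries 47.9% to 53.5%, with a mean of 50.1% ± 2.30. The left-flank shares at -186 and -179 were also higher in KO in 6 of 6 tissues, by 14.2 ± 8.43 and 13.9 ± 7.18 points (exact sign-flip permutation p = 0.03125 for both). Over the right flank KO was higher in 2 of 6 at -186 and 4 of 6 at -179 (exact sign-flip permutation p = 0.125 and 0.21875). Adjusted over the 8 shares computed, each p-value of 0.03125 became 0.0625, so none of these differences passed. As 6 pairs allow no smaller exact p, adjustment left little room to pass.

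Between tissues, 0 of 78 sites passed the edgeR test (0.0% of sites tested), with 5 at an unadjusted p under 0.05, of which 3 were elevated. limma called 0 and gave 4 at an unadjusted p under 0.05. The smallest adjusted p was 0.131, at -186 and -179. The tissue order of the whole island differed between the genotypes: lung was highest in KO and heart in WT. Over 6 tissues the KO and WT island levels had a Pearson correlation of 0.557 (exact permutation p = 0.222) and a Spearman correlation of 0.771 (exact p = 0.103). Without the 2 tissues farthest from the median r was 0.947. The elevated sites alone gave 0.865 (exact p = 0.0389) and the low sites alone -0.447 (exact p = 0.322). Without the 2 farthest tissues the low sites gave 0.823, and their Spearman correlation over all 6 was 0.0857, so the negative sign rested on those tissues.

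KO lung stood apart among the low sites. Of 70 low sites, 14 had at least 1% in KO lung, against 0 to 2 in each other KO library and 0 to 3 in each WT library. Pooled over the 70 low sites, 0.676% of calls were methylated in KO lung (95% Wilson interval 0.667% to 0.685%), against 0.400% to 0.418% in the other KO libraries and 0.352% to 0.519% in WT. At these 14 sites the mean was 2.01% in KO lung, 0.431% to 0.481% in the other 5 KO libraries and 0.389% to 0.510% in the 6 WT libraries. KO lung was above all 11 other libraries at each of the 14, which were picked for being high there. The median over all 70 low sites, which does not use this choice, was 0.399% in KO lung, 0.382% to 0.426% in the other KO libraries and 0.348% to 0.523% in WT.

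The raised sites were spread over the island, 8 upstream and 6 downstream. The highest was 143741075 at +9, with 862 methylated of 14980 calls or 5.75% in KO lung, against 0.307% to 1.18% in the other KO libraries and 0.359% to 0.580% in WT. A run of 4 neighbours just upstream of the start, 143740982, 143740989, 143740997 and 143741007, had 2.06%, 2.11%, 2.04% and 1.59% in KO lung. These were chosen after their values were seen. KO lung had 3821331 calls, the most of the KO libraries. The LacZ sequence, which the series' design text says was amplified from the same KO DNA, had its lowest level in lung, 33.6%, against 46.2% in liver and 65.8% to 70.5% in the other 4 tissues. With 1 library of KO lung there was no replicate of this pattern.

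**Figure D5:**
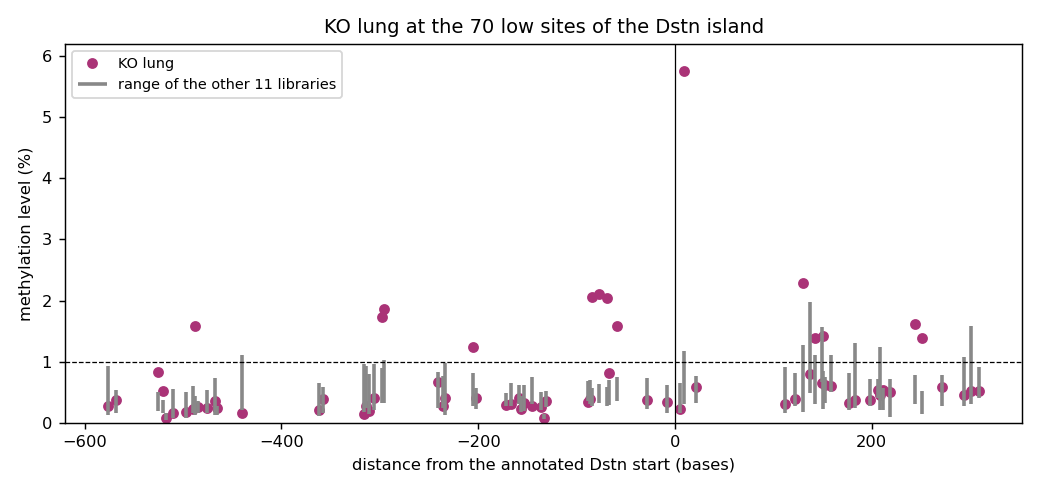
Methylation level in percent of the 70 low Dstn sites in KO lung (points) and the range of the other 11 libraries (grey bars), against distance from the annotated start in bases, with a dashed line at 1%. KO lung is at 1% or more at 14 sites, with the highest at 5.75%, and below 1% at the other 56.

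The Dstn difference was not set apart from those of the other islands measured in 5 or 6 tissues. KO minus WT was 0.242 ± 0.185 points at Dstn (n = 6), against 0.149 ± 0.343 at Ninj1 (n = 6) and 0.213 ± 0.642 at Arap (n = 5). Ninj1 had muscle in place of heart and Arap had no spleen, and shared tissues were not paired between lines. The Dstn difference exceeded that of Ninj1 by 0.0935 points and that of Arap by 0.0292 (exact permutation, adjusted p = 0.952 for both). With reads pooled over sites, Dstn was at 0.375 points and Ninj1 at -0.595, and this difference passed (adjusted exact p = 0.004329). Sites with a mean of 5% or more were 8 of 78 at Dstn, 13 of 55 at Ninj1 and 0 of 31 at Arap.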

How the data were processed

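Bisulfite amplicon libraries of the Dstn island were compared over 6 tissues in KO and WT, 1 library each. Per the submitters' processing notes, the authors worked on mm9 with Bismark and Bowtie2, whose versions are not given. The deposited files list for each CpG the percent methylation with counts of methylated and unmethylated calls, unnormalized, on which all values here rest. Whether duplicate reads were removed is not given in the sources used here. Strands that amplify better after bisulfite, methylated or not, are over-counted in such data.

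Libraries were grouped by their titles. Listed positions within 2000 bases of their median position were read, and those with at least 10 reads in every Dstn island library were kept. A library's level is the unweighted mean percent over sites. Per site, methylated and unmethylated counts entered edgeR 4.0.16 (R 4.3.3; quasi-likelihood) with tissue and genotype terms and Benjamini-Hochberg adjustment over 78 sites. The tissue term pairs KO with WT by tissue, not by animal. limma 3.58.1 on logit levels (offset of 0.5 calls) was an alternative. Levels were tested by exact sign flips (64) over tissue pairs, correlations over tissues by exact pairings (720) and over libraries by 100000 permutations, with scipy 1.17.1. The edgeR step was also run on simulated counts with known changes. Figures were drawn with matplotlib 3.10.9.

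The named sites are those with a mean of at least 5%, the 2 largest and 2 smallest KO minus WT differences, and the 3 highest and 3 lowest means below 5%. The sites, rules and tests were chosen with earlier results of these data known. The flank coverage, step, KO lung and downstream values were added after the site values were seen. The alternatives were pooled reads, the median over sites, other coverage minimums, leaving out or keeping only sites of 5% or more, no tissue or genotype term, and leaving out each tissue pair. RefSeq promoter sequences are of GRCm38 and were placed by CpG spacing alone, so no coordinate was converted.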

Additional observations from a re-analysis of the deposited data

Results flagged for a closer look

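In 36 groups of 6 libraries examined for a library far from the other 5, 7 had one. Chance gives about 5% of groups that are not picked by their values. The flagged sites were among the named ones, which were chosen by their levels, so this rate is not a fair comparison. KO lung was such a library in its level over the 70 low Dstn sites, at 0.707% against 0.410% to 0.430% in the other KO tissues. It was also one in the number of low sites at 1% or more, with 14 against 0 to 2. At the site 143741075, at +9, KO lung had 5.75% against 0.307% to 1.18% in the other KO tissues. These 3 values share a library and were not independent.

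KO brain had 0.151% at 143740549 (-517), against 0.0492% to 0.0826% in the other KO tissues, and 0.498% at 143740569 (-497), against 0.0709% to 0.176%. Among WT libraries, heart had 0.144% at 143740933 (-133), against 0.0568% to 0.0873% in the others. WT brain had 1.98% at 143741203 (+137), against 0.698% to 0.884% in the others. Counted over all 70 low sites, KO lung was far above the other 5 KO libraries at 13 sites, WT heart above the other 5 WT libraries at 6, and every other library at 0 to 3.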

How the results depend on the processing

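The KO minus WT difference of the island level kept its sign but no longer passed with the median over sites (0.0160 points), without sites at 5% or more (0.0427), with no coverage minimum (0.0501) and with 6 sites at an equal flank coverage ratio (0.103). The value at an equal ratio is a description, because ratio and level are not independent where a flank had nearly the site's coverage. The difference reversed to -0.0152 without both the sites at 5% or more and the lung pair. Leaving out 1 tissue pair gave 0.171 (without lung) to 0.275 points, where 5 pairs allow no exact p under 0.0625. The pooled value was 0.375 points (exact permutation p = 0.03125). Minimums of 100 and 1000 reads kept the same sites, as the lowest coverage was 1364.

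Site calls between KO and WT stayed at 0 with limma and with no replicate block, meaning no tissue term (0, with 4 sites at an unadjusted p under 0.05), and were 0 to 1 over the tissue pairs left out. Site calls between tissues were 0 in every alternative run. Of 112 alternatives for single named sites, 106 kept direction and side of the threshold, 1 newly passed and 5 reversed. On the log2 odds scale, the 5 reversed with 1 pair left out, ranging from -0.460 to 0.0688 at 143740549 and -0.898 to 0.0415 at 143740569 (positive without kidney), -0.0033 (without brain) to 0.104 at 143740674, -0.123 to 0.175 (without heart) at 143740933 and -0.0069 (without lung) to 0.936 at 143741075. The site 143740954 passed without brain, at -1.01 (adjusted p = 0.0248).

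The correlation of KO with WT over tissues was 0.851 with pooled reads, 0.865 with the elevated sites alone, both past the threshold, and -0.447, reversed, with the low sites alone, where it was 0.823 without the 2 farthest tissues. The excess of the Dstn difference over Ninj1 was 0.970 points with pooled reads, and reversed to -0.257 without sites at 5% or more; over Arap it reversed to -0.170. The cause was not tested. The excess of downstream over upstream low sites was 0.134 points with the median and 0.133 pooled. Calls are amplified reads without molecular identifiers, so coverage does not give the number of molecules sampled, and each tissue had 1 library per genotype.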
